A study of Homo sapiens with 18 samples.

Results

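The ATP-binding cassette (ABC) transporter family was described in osteosarcoma cells labelled Soas-2, named Saos-2 in the study methods, across 6 growth conditions. Members were taken by symbol, as every gene named ABC followed by a subfamily letter from A to G and a number. This gave 46 of the 50119 genes in the table, among them 9 pumps known to carry drugs out of cells. RNA sequencing was done on 18 libraries, 3 in each of 6 groups, and all groups carried the wild-type genotype label with no drug or other agent. The 2D cells (D-2), the 3D cells grown in Matrigel (D-3), and the tissue printed from cells in a methacrylated gelatin and alginate bioink (DP-3) were sampled after 14 days, and the printed tissue was also sampled at day 1 (DP-3 day 1). The fresh isolated tumor tissue (FIT) grew under the skin of 4-week-old female BALB/c nude mice for 2 weeks after Saos-2 cells in Matrigel were injected. The isolated tissue (IT) was made of pieces of such tumors cultured on Matrigel for 14 days. The 6 mice supplied both IT and FIT, and which library came from which mouse is not given in the sources used here. Nude mice lack mature T cells but keep macrophages, natural killer cells, vessels and skin, and how mouse reads were treated is not given in the sources used here.

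ABC proteins bind and split ATP and use the energy, in most members, to move a substrate across a membrane. The drug efflux pumps sit mostly in the plasma membrane and lower the amount of chemotherapy inside a cell. ABCB1 (P-glycoprotein) carries bulky hydrophobic drugs such as doxorubicin, ABCC1 carries drugs and glutathione conjugates, and ABCG2 carries topotecan and many others. Members of the A and G subfamilies mostly move lipids and sterols, those of the D subfamily move fatty acids and vitamin B12 intermediates, and the E and F subfamilies carry no drug at all but act on ribosomes. In osteosarcoma, which is treated with doxorubicin, cisplatin and methotrexate, the family has been studied mainly for drug resistance.

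The total estimated count ranged from 23721666 in FIT replicate 3 to 79082786 in a D-2 library, and about 4 estimated counts stood for 1 read pair. The number of genes at an FPKM of at least 0.1 was 17716 to 18109 in D-2, 18664 to 19249 in DP-3, 19969 to 21813 in FIT and IT, 21384 to 22322 in D-3 and 24694 to 24791 in DP-3 at day 1. Members at 0.1 FPKM or more numbered 28 to 30 per library in D-3, 27 to 29 in DP-3 at day 1 and 23 to 27 elsewhere. Of the markers of the Saos-2 line and osteoblasts, SPARC, COL1A1, COL1A2 and RUNX2 were present in every group, but ALPL, SP7 and IBSP, which define osteoblasts, stayed at or below 0.148, 0.0949 and 0.0802 FPKM in every library. The identity of the line was not tested further. Some markers of skin and muscle were highest in FIT and low in IT. KRT14 (keratinocytes) was at 10.4, 1.67 and 0.115 FPKM in FIT and at most 0.336 in all other libraries, KRT5 was at 0.642, 0.917 and 2.04 in FIT and at most 0.1 elsewhere, and MYH2 (muscle) reached 3.61 in FIT replicate 3. TP63, KRT1, KRT10 and CKM, of the same lists, did not follow. Their means were 0.260, 0, 25.0 and 0 in FIT and 0.276, 0, 22.5 and 0.0504 in IT. The 9 endothelial markers did not move together. CDH5 was at 0.32 to 1.34 FPKM in IT and FIT and at 0.0228 to 0.149 elsewhere, and PECAM1 at 2.93 to 5.01 and 0.792 to 1.8, while the means of VWF, KDR, EMCN and TIE1 were lower in FIT than in D-3 and in DP-3 at day 1. FABP4 (adipocytes) was at 2.19 to 3.2 in D-3 and 0.709 to 8.53 in DP-3, and was listed at 0 in FIT. The summed markers of red blood cells stayed at or below 0.844 FPKM and those of adipocytes at or below 8.71. Those of muscle stayed at or below 5.00. Summed fibroblast markers were at 8.78 to 9.31 in D-3 and 15.3 to 39.8 in all other libraries, summed endothelial markers at 25.3 to 26.6 in D-2 and 28.2 to 50.4 elsewhere, with TIE1 the largest part, summed keratinocyte markers at 16.3 to 41.7 with KRT10 the largest part, and summed macrophage markers at 20.1 to 117, mostly CD68, with TYROBP, C1QA and PTPRC at or below 0.205, 0.123 and 0.0625. The part of these cells in the results below was not tested, and in bulk tissue fewer cells of a type and less RNA per cell cannot be told apart. Replicates differed from each other by more than sampling noise in every group, and nothing in the labels says that they came from separate cultures, so p-values measure the spread between these libraries.

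The highest group mean was 10 FPKM or more for 4 members (ABCC1, ABCE1, ABCF1 and ABCF2), 1 to 10 for 17, 0.1 to 1 for 10 and below 0.1 for 15. FPKM corrects for transcript length and sequencing depth, so it allows levels of different genes to be set side by side. Of the 46 members, 31 reached 0.1 FPKM in at least 3 of the 18 libraries and were tested for any difference among the 6 groups. With edgeR's quasi-likelihood F test and Benjamini-Hochberg adjustment over all genes, 24 of the 31 passed an adjusted p of 0.05, against 37.3% of all genes tested. Of these 24, ABCB1 and ABCC9 reached 0.1 FPKM in 3 libraries only with those of D-3, and ABCA4 only with those of IT. Their part in this count, and that of ABCB1 in the count of pumps, is a description only. Of the 9 drug efflux pumps, 8 were tested and 5 passed, namely ABCC3, ABCC10, ABCB1, ABCC4 and ABCC5. ABCC1, ABCC2 and ABCC11 did not pass, and ABCG2 was too low to test. Outside the pumps, the mitochondrial ABCB8, the peroxisomal ABCD2 and the ribosome-related ABCF3 were among those that did not pass.

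Pairwise comparisons used the 6 libraries of both groups, and a member was called when edgeR's quasi-likelihood test gave a Benjamini-Hochberg adjusted p below 0.05 and the change was at least 2-fold. In D-2 against FIT, 25 members were tested and 3 were called, all downregulated (ABCA3, ABCA7 and ABCA13), while 14.6% of all genes tested were called and 10.8% were called as downregulated. In D-3 against FIT, 28 were tested and 5 were called, all upregulated (ABCB1, ABCC3, ABCB4, ABCC9 and ABCG4), against 6.45% of all genes and 4.29% as upregulated. Of these 5, ABCB1, ABCB4 and ABCC9 passed the filter on low values through D-3 alone, which fixed their direction, so their part of the count is a description only. In DP-3 against FIT, 25 were tested and 2 were downregulated (ABCA1 and ABCA3), against 4.82% of all genes and 3.16% as downregulated. In IT against FIT, 26 members were tested and edgeR called 0, with 6 members at an unadjusted p below 0.05. edgeR called 0.0% of all genes there. DESeq2 and limma on the FPKM also called 0 members, while DESeq2 called 661 of 21183 genes. These 4 comparisons share the FIT libraries.

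The remaining comparisons did not use FIT. In DP-3 at day 14 against DP-3 at day 1, 25 members were tested and 5 were downregulated (ABCA1, ABCA3, ABCA5, ABCA7 and ABCC3) with 0 upregulated, against 7.56% of all genes called and 5.76% called as downregulated. In D-3 against D-2, 28 members were tested and 10 were called, against 18.5% of all genes. Of these 10, 8 were upregulated (ABCB1, ABCC3, ABCB4, ABCC9, ABCA3, ABCA5, ABCA7 and ABCA13) and 2 were downregulated (ABCE1 and ABCF2), against 14.6% and 3.95% of all genes. Here ABCB1, ABCB4, ABCC9 and ABCA3 passed the filter through D-3 alone, and ABCA3 passed it through FIT or day 1 alone in the other 3 comparisons that called it, so their direction was likewise fixed by the filter. limma on log2(FPKM + 0.1) called 10 upregulated and 0 downregulated members in D-3 against D-2, since the fall of ABCE1 and ABCF2 was then -0.95 and -0.84 on the log2 scale and under 2-fold. The median log2 fold change of all genes in D-3 against D-2 was 0.11, and that of the members tested was 0.42. In the other 5 comparisons the median of the members was between -0.23 and 0.08 and that of all genes between -0.09 and 0.02. Further members passed the adjusted p at a change below 2-fold, 10 in D-2 against FIT, 2 in DP-3 against FIT, 8 in DP-3 against DP-3 at day 1 and 6 in D-3 against D-2, and 0 in the other 2 comparisons. At any fold this made 13 of 25 members in D-2 against FIT, against 30.9% of all genes tested. The same counts were 5 of 28 members against 8.29% of genes in D-3 against FIT, 4 of 25 against 8.4% in DP-3 against FIT, 13 of 25 against 22.1% in DP-3 against day 1, and 16 of 28 against 35.5% in D-3 against D-2.

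**Figure D1:**
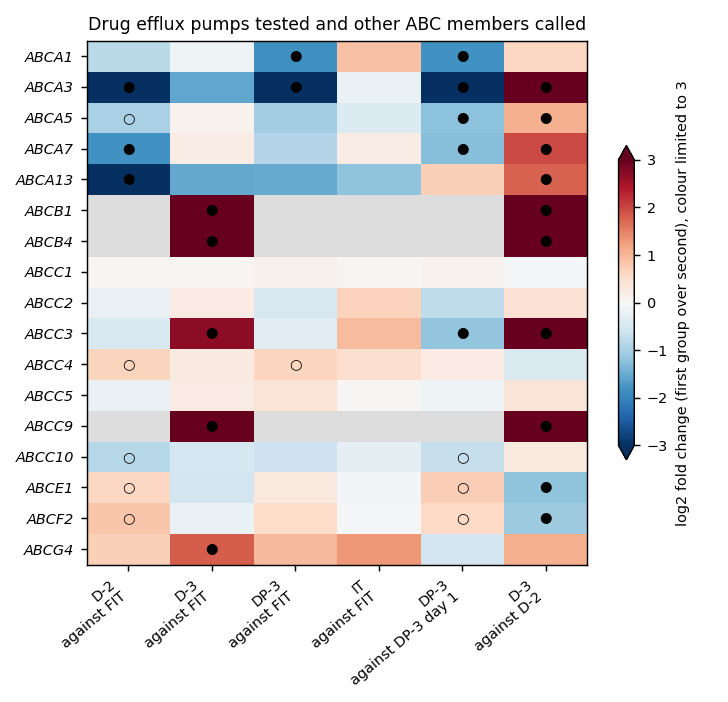
Log2 fold change from edgeR of the drug efflux pumps tested and of every other member called in a pairwise comparison, one row per gene and one column per comparison, first group over second, with colour limited to 3 on the log2 scale and grey where a member was too low to test. Filled circles mark the called members and open circles those past the adjusted p at a change below 2-fold. IT against FIT holds no circle, and the filled circles of D-3 against FIT are all on the red, upregulated side.

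The promoters of some of the members called between D-2 and D-3 are shown because these members went in opposite directions there. The sequences are from RefSeq on GRCh38.p14, which held a promoter for 35 of the 46 members. They are the 250 bases before the transcript start, 5′ to 3′ in the sense of the gene, with capitals marking the GC box GGGCGG and the CCAAT box CCAAT on either strand. In D-3 against D-2, ABCB1, ABCA3 and ABCA7 were upregulated and ABCE1 and ABCF2 were downregulated.
ABCB1, chr7:87600885-87601134, minus strand: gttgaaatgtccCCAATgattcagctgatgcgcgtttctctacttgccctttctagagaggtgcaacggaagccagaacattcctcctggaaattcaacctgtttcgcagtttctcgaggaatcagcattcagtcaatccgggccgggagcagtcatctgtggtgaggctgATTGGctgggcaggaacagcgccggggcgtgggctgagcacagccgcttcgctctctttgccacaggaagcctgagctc
ABCE1, chr4:145098061-145098310, plus strand: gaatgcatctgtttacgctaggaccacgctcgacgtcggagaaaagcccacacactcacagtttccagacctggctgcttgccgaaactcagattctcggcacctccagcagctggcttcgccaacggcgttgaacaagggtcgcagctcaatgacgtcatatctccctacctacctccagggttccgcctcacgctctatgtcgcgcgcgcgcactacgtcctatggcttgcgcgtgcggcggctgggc
ABCF2, chr7:151227206-151227455, minus strand: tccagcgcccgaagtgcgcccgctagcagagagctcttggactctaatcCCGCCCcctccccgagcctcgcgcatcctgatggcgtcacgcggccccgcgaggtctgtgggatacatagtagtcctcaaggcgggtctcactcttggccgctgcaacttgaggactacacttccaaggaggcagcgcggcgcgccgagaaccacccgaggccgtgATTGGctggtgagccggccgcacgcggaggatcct
ABCA3, chr16:2340729-2340978, minus strand: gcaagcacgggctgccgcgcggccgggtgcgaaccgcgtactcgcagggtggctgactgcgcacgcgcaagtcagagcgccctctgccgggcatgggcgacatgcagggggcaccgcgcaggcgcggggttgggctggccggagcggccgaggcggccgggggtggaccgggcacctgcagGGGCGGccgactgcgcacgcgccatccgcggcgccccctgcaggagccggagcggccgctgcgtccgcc
ABCA7, chr19:1039857-1040106, plus strand: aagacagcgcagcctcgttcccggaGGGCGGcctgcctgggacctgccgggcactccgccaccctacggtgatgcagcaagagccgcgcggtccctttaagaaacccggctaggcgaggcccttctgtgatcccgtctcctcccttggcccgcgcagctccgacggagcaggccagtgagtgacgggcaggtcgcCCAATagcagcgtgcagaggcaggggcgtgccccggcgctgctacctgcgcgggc
ABCB1 has 2 starts in the table, and the one nearer its coding part is printed. The ABCB1 window holds 2 CCAAT boxes, at -238 and -79 from the start, and no GC box. The ABCE1 window holds neither motif, while ABCF2 and ABCA7 hold both, with the CCAAT box at -35 and -55, and ABCA3 holds a GC box at -69. A GC box was present in 47.2% of the 53 member windows and in 42.6% of all 35116 windows, and a CCAAT box in 20.8% and 32.0%. GC content was 55.6% for ABCB1, 60.0% for ABCE1, 66.4% for ABCF2, 70.4% for ABCA7 and 79.2% for ABCA3. In the windows shown, upregulated members (ABCB1, ABCA3, ABCA7) and downregulated members (ABCE1, ABCF2) were not set apart by these letters. ABCA5, ABCA13 and ABCC9 were also upregulated and had a promoter in RefSeq, but are not shown, so this covers a part of the called members only.

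Among the drug efflux pumps, ABCC1 (MRP1) led in every library. It lies at chr16:15949577-16143074 in the deposited positions, which overlap GENCODE release 29 on GRCh38. ABCC1 was at FPKM values of 10.8, 11.5 and 11.3 for D-2, 13.1, 11.6 and 14.3 for D-3, 12.1, 11.2 and 12.5 for DP-3, 12.3, 10.6 and 14.4 for IT, 13.2, 13.8 and 8.96 for FIT and 13.2, 13.7 and 13.5 for DP-3 at day 1. Every group overlapped FIT, whose own libraries were the most spread, and the lowest value was that of FIT replicate 3, the library with the smallest total. ABCC1 made up 40.5% to 56.3% of the summed FPKM of the 9 pumps. ABCC1 did not pass the test over the 6 groups (edgeR's quasi-likelihood F test, adjusted p = 0.98), and its log2 fold change was between -0.04 and 0.12 in the 6 pairwise comparisons, with standard errors of up to 0.22.

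ABCC5, ABCC10 and ABCC4 formed a middle tier. ABCC5 (MRP5), which exports cyclic nucleotides and nucleotide analogs, was at FPKM values of 3.29, 3.62 and 2.8 for D-2, 4.68, 5.76 and 4.69 for D-3, 5.22, 4.97 and 4.73 for DP-3, 4.64, 4.14 and 3.91 for IT, 3.6, 3.36 and 5.41 for FIT and 6.83, 6.35 and 6.31 for DP-3 at day 1. DP-3 at day 1 was above all other libraries, and D-2 had the lowest mean, with FIT overlapping it. ABCC5 passed the test over the 6 groups (adjusted p = 0.0115, edgeR) but was called in no pairwise comparison. In counts scaled with TMM factors, the scaling used in edgeR, DP-3 at day 14 against day 1 differed little (log2 fold change -0.12). The FPKM values of the 2 groups, which carry no TMM factor, did not overlap. Before scaling, the estimated counts were 5137, 5216 and 3829 in DP-3, with library totals of 60000387 to 77174403. At day 1 they were 4693, 4357 and 4275, with totals of 50327345 to 50913046. The size of the change therefore depended on the scaling for this gene.

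ABCC10 (MRP7), known for carrying taxanes, was at FPKM values of 2.41, 2.45 and 1.96 for D-2, 3.43, 3.53 and 3.03 for D-3, 3.13, 3.27 and 1.95 for DP-3, 4.14, 3.12 and 3.95 for IT, 4.87, 4.28 and 4.71 for FIT and 5.65, 5.25 and 5.35 for DP-3 at day 1. FIT and DP-3 at day 1 were the highest groups and did not overlap each other, and D-2 was the lowest in its mean but overlapped DP-3. It passed the adjusted p below 2-fold in D-2 against FIT (log2 fold change -0.87, SE 0.12, edgeR adjusted p = 0.00401) and in DP-3 at day 14 against day 1 (log2 fold change -0.70, SE 0.17, edgeR adjusted p = 0.0271). In D-3 against FIT the libraries did not overlap, but the adjusted p was 0.0699 in edgeR.

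ABCC4 (MRP4), which exports nucleotide analogs and prostaglandins, was at FPKM values of 4.03, 3.86 and 3.61 for D-2, 3.77, 2.63 and 3.75 for D-3, 3.65, 3.97 and 3.86 for DP-3, 3.72, 4.23 and 3.51 for IT, 2.71, 2.73 and 2.61 for FIT and 3.72, 4.18 and 3.67 for DP-3 at day 1. FIT was the lowest group and 1 D-3 library lay inside its range. ABCC4 was higher than in FIT below 2-fold in D-2 (log2 fold change 0.67, SE 0.11, edgeR adjusted p = 0.00561) and in DP-3 (log2 fold change 0.64, SE 0.14, edgeR adjusted p = 0.0358). In IT it had a log2 fold change of 0.51 with an adjusted p of 0.274 in edgeR, and this did not pass.

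ABCC3 (MRP3), which exports glucuronide conjugates and also carries etoposide and methotrexate, varied most among the pumps above 1 FPKM. It was at FPKM values of 0.168, 0.141 and 0.168 for D-2, 1.76, 1.29 and 1.92 for D-3, 0.164, 0.143 and 0.219 for DP-3, 0.409, 0.617 and 0.384 for IT, 0.255, 0.154 and 0.322 for FIT and 0.586, 0.39 and 0.476 for DP-3 at day 1. The 3 D-3 libraries were above all 15 others, and D-2 overlapped DP-3 and FIT. ABCC3 was upregulated 6.47-fold in D-3 against FIT (log2 fold change 2.69, SE 0.34, edgeR adjusted p = 0.00524) and 8.6-fold in D-3 against D-2 (log2 fold change 3.10, SE 0.22, edgeR adjusted p = 0.000797), and each call was kept when any 1 library was left out. The share of ABCC3 in the summed pumps was 6.13% on average in D-3 and at most 1.91% in the means of the other groups. In printed tissue it was downregulated from day 1 to day 14 (log2 fold change -1.19, SE 0.29, edgeR adjusted p = 0.0265), but this call was lost in 5 of 6 fits that left out 1 library, all except the one without DP-3 replicate 3, with adjusted p of 0.0527 to 0.0974.

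ABCB1 (P-glycoprotein) was at the edge of detection. It was listed at 0 in all libraries of D-2 and DP-3, at 0, 0.00691 and 0 FPKM in FIT, at 0.0286, 0 and 0.0255 in IT, at 0.1, 0.061 and 0.0424 in DP-3 at day 1 and at 0.136, 0.172 and 0.173 in D-3. D-3 was above every other library. The estimated counts in D-3 were 65, 91 and 88, against 4 or fewer in each FIT library and 0 in D-2. A limit of detection of 12 estimated counts, or 3 read pairs, was set per library. Taking mean counts over library totals, and this limit in place of the counts of the lower group, ABCB1 was at least 4.32-fold higher in D-3 than in FIT and at least 7.95-fold higher than in D-2. Both calls passed (edgeR adjusted p = 0.0206 and 0.0025), but that against FIT did not pass without D-3 replicate 1 (0.0668) or replicate 3 (0.0818). The D-3 mean of 0.160 ± 0.0211 FPKM (SD, n = 3) stood for 0.598% of the summed pumps. ABCB1 passed the filter on low values in both comparisons through the D-3 libraries alone, as did ABCB4 and ABCC9 below, and such genes had to differ to be tested. The adipocyte marker FABP4 was at 2.19 to 3.2 FPKM in D-3, against 0 in FIT and 0.116 to 0.289 in D-2. Printed tissue at day 14, where ABCB1 was listed at 0, held FABP4 at 0.709 to 8.53 FPKM. CIDEC, of the same marker list, had a mean of 0.202 in FIT and 0.0527 in D-3. For the 2D, 3D and printed cultures the study methods name no cells other than Saos-2. A link between these markers and the level of ABCB1 was not tested.

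The last 3 pumps were low in every group. ABCC2 (MRP2), the exporter of conjugates into bile, was at 0.36, 0.256 and 0 FPKM for FIT and at 0.123 to 0.224 for D-2, 0.23 to 0.29 for D-3, 0.114 to 0.165 for DP-3, 0.207 to 0.516 for IT and 0.215 to 0.368 for DP-3 at day 1. It was not called anywhere, and FIT replicate 3, the smallest library, was the one listed at 0. ABCC11 (MRP8) was at 0.00584 to 0.105 FPKM in the groups other than DP-3 at day 1 and at 0.0342, 0.159 and 0.172 there. ABCG2 (BCRP), often used as a marker of drug-resistant side populations, was at 0 to 0.0483 FPKM outside DP-3 at day 1 and at 0.0682, 0.077 and 0.112 in DP-3 at day 1. DP-3 at day 1 was above all other ABCG2 libraries, but the counts of 24, 27 and 38 there and at most 19 elsewhere were too low for a test.

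**Figure D2:**
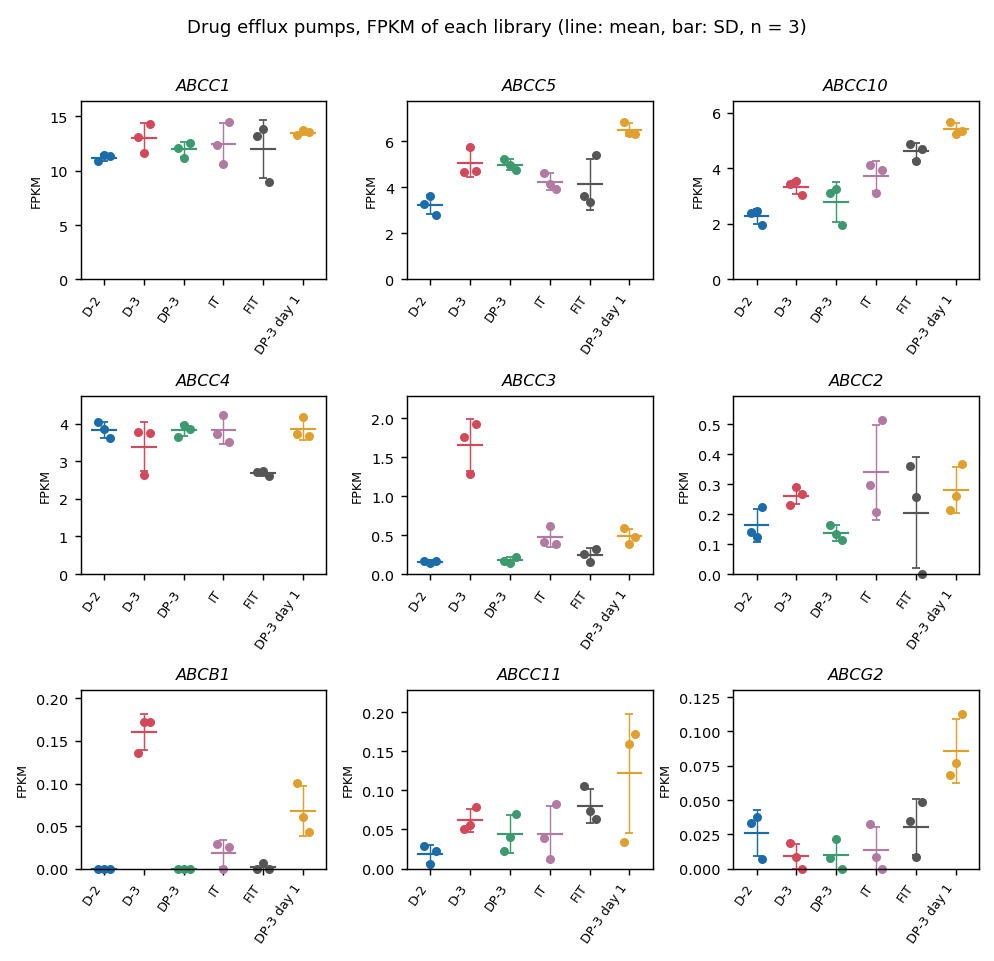
FPKM of the 9 drug efflux pumps in each library (points), with group means (lines) and SD (bars, n = 3), one panel per gene with its own linear axis from 0. ABCC3 and ABCB1 stand out in D-3, and in ABCC1 every group overlaps FIT.

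Summed over the 9 pumps, the level lay between 20.1 and 21.7 FPKM for D-2, 22.1 and 25.1 for FIT, 22.9 and 26.8 for IT, 23.5 and 24.5 for DP-3, 25.3 and 28.2 for D-3 and 30.0 and 30.5 for DP-3 at day 1. The D-2 libraries lay below and the DP-3 day 1 libraries above all others, while DP-3, IT and FIT overlapped. These sums are in FPKM, and their order was not tested in counts. In printed tissue, ABCC1 and ABCC5 had a higher mean FPKM at day 1 than at day 14. In counts scaled with TMM factors, which the FPKM values do not carry, they changed little between these groups (log2 fold change 0.09 and -0.12 for day 14 against day 1). ABCC1, ABCC5, ABCC10 and ABCC4 made up most of the sum in every library. Their mean shares were 53.6%, 15.4%, 10.9% and 18.3% in D-2 and 49.7%, 17.5%, 19.3% and 11.2% in FIT, so ABCC4 was the second pump in D-2 and ABCC10 the second in FIT. ABCC5 was second in the other 4 groups.

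**Figure D3:**
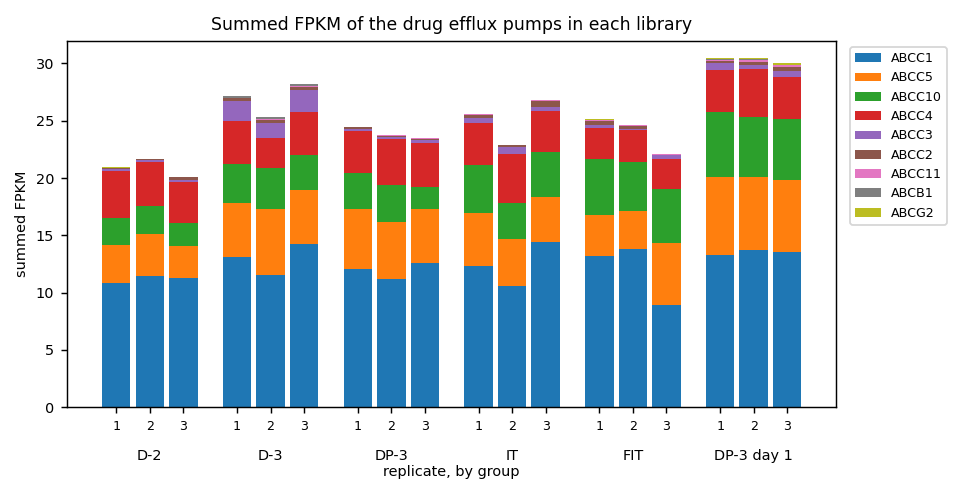
Summed FPKM of the 9 drug efflux pumps in each of the 18 libraries, stacked by gene, with the 3 replicates of each group side by side. ABCC1 is the largest block in every bar, and ABCC3 is visible mainly in the 3 D-3 bars.

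ABCB4, the phospholipid floppase of bile and neighbor of ABCB1 on chromosome 7 (chr7:87401696-87475739 beside chr7:87503017-87713323), was also highest in D-3. It was at 0.727, 0.211 and 0.778 FPKM in D-3, 0.0862, 0.0668 and 0.409 in IT, 0.159, 0.105 and 0.0433 in DP-3 at day 1 and at most 0.0205 in all libraries of D-2, DP-3 and FIT. D-3 replicate 2 lay below IT replicate 3, so D-3 and IT overlapped. ABCB4 was at least 18.4-fold higher in D-3 than in FIT and at least 33.9-fold higher than in D-2, both measured against the limit of detection (edgeR adjusted p = 0.00729 and 0.00373), and both calls were kept in every fit that left out 1 library. ABCB4 passed the filter through D-3 alone, and these fits kept the genes of the full filter, so they do not test its direction. The other bile transporter, ABCB11 (the bile salt export pump), stayed at or below 0.0613 FPKM and was not tested.

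Among the sterol transporters, ABCA1, which hands cholesterol to apolipoprotein A-I, was at FPKM values of 0.495, 0.666 and 0.746 for D-2, 1.39, 0.857 and 1.26 for D-3, 0.288, 0.363 and 0.292 for DP-3, 2.92, 1.44 and 2.37 for IT, 1.83, 0.992 and 0.881 for FIT and 1.33, 1.26 and 1.39 for DP-3 at day 1. DP-3 was the lowest group and overlapped no other, and IT was the highest. ABCA1 was downregulated 3.51-fold in DP-3 at day 14 against day 1 (log2 fold change -1.81, SE 0.16, edgeR adjusted p = 0.00182), and the call was kept in every fit that left out 1 library. Against FIT it was also downregulated in DP-3 (log2 fold change -1.84, SE 0.31, edgeR adjusted p = 0.0205), but the call was kept only without FIT replicate 3, and the adjusted p was 0.0558 to 0.0817 in the 5 other fits. The values in D-2 were below those of FIT without passing (log2 fold change -0.80, SE 0.31, edgeR adjusted p = 0.0898).

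ABCG4, a sterol exporter best known from brain, was at 0.0928, 0.188 and 0.13 FPKM in FIT and 0.562, 0.354 and 0.617 in D-3. The groups did not overlap, and the call was close to the threshold (log2 fold change 1.81, SE 0.46, edgeR adjusted p = 0.0497). It was lost in 5 of 6 fits that left out 1 library, all but the one without D-3 replicate 2, with adjusted p of 0.0741 to 0.167, and also with median-of-ratios scaling (0.0514), with the replicate block (0.113) and with limma on log2(FPKM + 1) (0.0866). In the other groups ABCG4 was at 0.142 to 0.692 FPKM. ABCG1, the partner exporter to HDL, stayed at or below 0.0444 FPKM, and the intestinal pair ABCG5 and ABCG8, neighbors on chromosome 2, at or below 0.0976 and 0.0450. Hence 2 of the 5 sterol transporters were tested.

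The other A subfamily members held more calls than any other role group. Of these 11 lipid transporters, 6 were tested over the 6 groups and these 6 passed, against 37.3% of all genes, while 5 were too low to test. ABCA4, 1 of the 6, passed the filter on low values only with its IT libraries, so its part of the count is a description only. In D-3 against D-2, 4 of 5 tested were upregulated, ABCA3 among them, with 0 downregulated, against 14.6% and 3.95% of all genes. ABCA3, the phospholipid transporter of lamellar bodies in the lung, was at FPKM values of 0.032, 0.0217 and 0.0319 for D-2, 0.469, 0.177 and 0.389 for D-3, 0.0206, 0.0761 and 0.0339 for DP-3, 1.56, 0.359 and 0.656 for IT, 1.47, 1.05 and 0.395 for FIT and 0.563, 0.443 and 0.734 for DP-3 at day 1. The 6 libraries of D-2 and DP-3 were below all 12 others and below 0.1 FPKM, so that ABCA3 passed the filter through the higher group alone. ABCA3 was downregulated 29.5-fold in D-2 against FIT (log2 fold change -4.88, SE 0.55, edgeR adjusted p = 0.00236), 11-fold in DP-3 against day 1 (log2 fold change -3.46, SE 0.51, edgeR adjusted p = 0.00514) and 20.4-fold in DP-3 against FIT (log2 fold change -4.35, SE 0.66, edgeR adjusted p = 0.0161), and was 9.81-fold upregulated in D-3 against D-2 (log2 fold change 3.29, SE 0.47, edgeR adjusted p = 0.00354). The call in DP-3 against FIT was lost without DP-3 replicate 1 or 3 or FIT replicate 1 or 2 (adjusted p = 0.0540 to 0.0615), and the other 3 calls were kept in every such fit. Such fits kept the genes of the full filter, so they do not test the direction of ABCA3.

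ABCA7, a phospholipid transporter linked to phagocytosis, was at FPKM values of 0.257, 0.354 and 0.431 for D-2, 1.54, 1.41 and 2.03 for D-3, 0.799, 0.638 and 0.623 for DP-3, 1.51, 1.15 and 2.15 for IT, 1.37, 1.14 and 1.6 for FIT and 1.9, 1.9 and 2.18 for DP-3 at day 1. D-2 was below all others and DP-3 came next. DP-3 at day 1 was above FIT without overlap, and D-3 and IT overlapped both. It was downregulated in D-2 against FIT (log2 fold change -1.81, SE 0.25, edgeR adjusted p = 0.00368) and in DP-3 against day 1 (log2 fold change -1.27, SE 0.15, edgeR adjusted p = 0.00309) and upregulated in D-3 against D-2 (log2 fold change 1.99, SE 0.25, edgeR adjusted p = 0.00262). In DP-3 against FIT the value was -0.87, with an edgeR adjusted p of 0.05001, and did not pass. ABCA5, a lysosomal lipid transporter, was at 0.253 to 0.303 FPKM for D-2, 0.196 to 0.354 for DP-3, 0.329 to 0.574 for IT, 0.552 to 0.684 for FIT, 0.584 to 0.754 for D-3 and 0.739 to 0.838 for DP-3 at day 1. It was downregulated in DP-3 against day 1 (log2 fold change -1.24, SE 0.23, edgeR adjusted p = 0.0104) and upregulated in D-3 against D-2 (log2 fold change 1.05, SE 0.20, edgeR adjusted p = 0.00796), where the fold fell below 2 without D-2 replicate 1 or D-3 replicate 1 or 3 (lowest log2 fold change 0.98).

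ABCA13, a very large member of which little is known, was at 2.46, 2.66 and 0.722 FPKM in FIT and 0.0788, 0.26 and 0.181 in D-2, with 0.352 to 1.38 in the other groups. FIT replicate 3 lay among the libraries of the other groups while FIT replicates 1 and 2 were above all of them. KRT14 was also highest in FIT replicates 1 and 2, at 10.4 and 1.67 FPKM, and 0.115 in replicate 3, but KRT5 was highest in replicate 3, at 0.642, 0.917 and 2.04 FPKM. The part of skin in the level of ABCA13 was not tested. ABCA13 was downregulated in D-2 against FIT (log2 fold change -3.35, SE 0.61, edgeR adjusted p = 0.00832), and the call was kept in every fit that left out 1 library, and was upregulated in D-3 against D-2 (log2 fold change 1.78, SE 0.44, edgeR adjusted p = 0.0195), except without D-2 replicate 3 or D-3 replicate 1 (adjusted p = 0.0570 and 0.0622). ABCA2, a lipid transporter of lysosomes and endosomes, was the most abundant of the subfamily at 3.14 to 3.28 FPKM in D-2 and up to 8.68 in DP-3 at day 1, and passed the adjusted p below 2-fold in DP-3 against day 1 (log2 fold change -0.92, SE 0.13, edgeR adjusted p = 0.00476). ABCA4 reached at most 0.163 FPKM. ABCA6, ABCA8, ABCA9, ABCA10 and ABCA12 stayed at or below 0.134 FPKM, and ABCA6, ABCA8, ABCA9, ABCA10 and ABCA5 lie side by side on chromosome 17 from 68867289 to 69327182, of which ABCA5 alone passed the filter on low values.

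**Figure D4:**
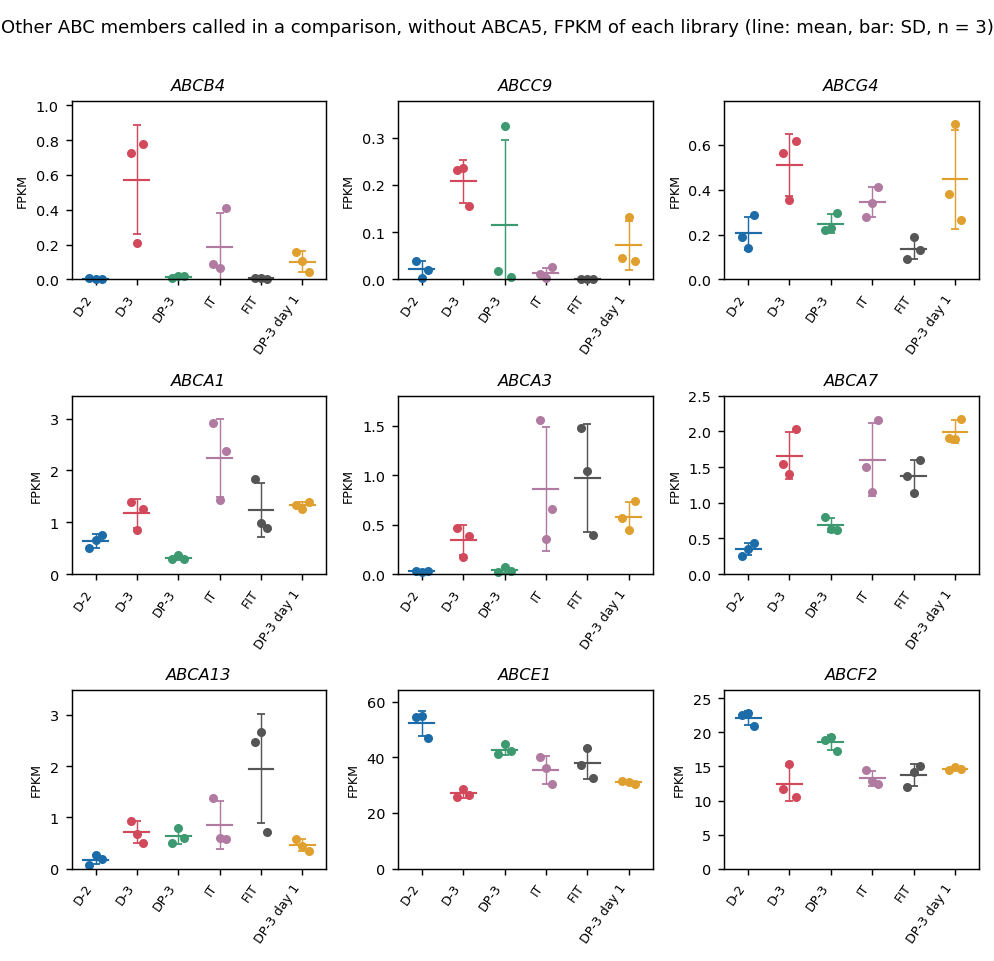
FPKM in each library (points) of 9 of the further members called in a pairwise comparison (ABCA5 is not drawn), with group means (lines) and SD (bars, n = 3), one panel per gene with its own linear axis from 0. ABCB4 and ABCC9 are near 0 in FIT, ABCA3 is near 0 in D-2 and DP-3, and ABCE1 and ABCF2 are highest in D-2.

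The transporters of inner organelles held no calls. ABCB6, ABCB8 and ABCB10, members tied to mitochondria and heme, were at 1.95 to 5.71 FPKM, and 0 of these 3 were called in any pairwise comparison. ABCB10 passed the adjusted p below 2-fold, higher in D-2 than in FIT (log2 fold change 0.77, SE 0.17, edgeR adjusted p = 0.0153) and lower in D-3 than in D-2 (log2 fold change -0.98, SE 0.15, edgeR adjusted p = 0.00403), and part of its reads can be shared with its pseudogenes. The peroxisomal importer ABCD3, the vitamin B12 exporter ABCD4 and the lysosomal peptide transporter ABCB9 were tested in all comparisons with 0 calls. ABCD4 was lower in D-2 than in FIT below 2-fold (log2 fold change -0.89, SE 0.17, edgeR adjusted p = 0.00957), ABCD3 was higher (log2 fold change 0.55, SE 0.12, edgeR adjusted p = 0.0135), and ABCB9 was lower (log2 fold change -0.77, SE 0.16, edgeR adjusted p = 0.0114) and also lower in DP-3 than in FIT (log2 fold change -0.86, edgeR adjusted p = 0.0368). ABCD2 stayed at or below 0.181.

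ABCC9, the sulfonylurea receptor that gates potassium channels in muscle and vessel, was at 0.232, 0.235 and 0.155 FPKM in D-3 and listed at 0 in all FIT libraries. It was at 0.0396, 0.00346 and 0.0205 in D-2, 0.0121, 0.00404 and 0.0257 in IT and 0.0461, 0.132 and 0.039 in DP-3 at day 1. In DP-3 it was at 0.0177, 0.324 and 0.00439, so 1 printed library held more than any D-3 library and the other two held almost none. ABCC9 was at least 10-fold higher in D-3 than in FIT against the limit of detection (edgeR adjusted p = 0.00418), and the call was kept in every fit that left out 1 library. It was upregulated in D-3 against D-2 (log2 fold change 3.02, SE 0.71, edgeR adjusted p = 0.0168), except without D-2 replicate 3 (adjusted p = 0.0545). In both comparisons ABCC9 passed the filter through D-3 alone, so the fits that left out 1 library do not test its direction. Its relative ABCC8 stayed at or below 0.0216 FPKM. ABCB5, ABCC6 and ABCC12 stayed at or below 0.0688, 0.113 and 0.0793, and the unclassed ABCC13 at or below 0.0453. ABCC6, the gene of pseudoxanthoma elasticum beside ABCC1 on chromosome 16, shares near-identical sequence with 2 pseudogenes, so its reads are uncertain.

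ABCE1, ABCF1 and ABCF2, which are no transporters, had the highest means over the 18 libraries (37.7, 23.6 and 15.8 FPKM, against 12.3 for ABCC1). In D-3 the order differed, with ABCC1 at 13 ± 1.35 and ABCF2 at 12.5 ± 2.53 FPKM (SD, n = 3). ABCE1, which splits ribosomes after translation, was at FPKM values of 54.6, 54.9 and 46.9 for D-2, 25.7, 28.7 and 26.5 for D-3, 41.2, 44.7 and 42.3 for DP-3, 40.2, 36.3 and 30.2 for IT, 37.3, 43.4 and 32.5 for FIT and 31.5, 31.2 and 30.5 for DP-3 at day 1. D-2 was above all others, D-3 was the lowest group, and DP-3 came second. ABCE1 was downregulated 2.3-fold in D-3 against D-2 (log2 fold change -1.20, SE 0.11, edgeR adjusted p = 0.0014), and the call was kept in every fit that left out 1 library. Below 2-fold it was higher in D-2 than in FIT (log2 fold change 0.61, SE 0.15, edgeR adjusted p = 0.0193) and in DP-3 at day 14 than at day 1 (log2 fold change 0.73, SE 0.08, edgeR adjusted p = 0.00241).

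ABCF2 was at FPKM values of 22.6, 22.8 and 21 for D-2, 11.6, 15.3 and 10.5 for D-3, 18.9, 19.3 and 17.3 for DP-3, 14.5, 12.8 and 12.4 for IT, 12, 14.2 and 15.1 for FIT and 14.5, 14.9 and 14.6 for DP-3 at day 1. D-2 was again above all others and D-3 had the lowest mean, with a wide spread. It was downregulated 2.11-fold in D-3 against D-2 (log2 fold change -1.08, SE 0.16, edgeR adjusted p = 0.00363), and under 2-fold without D-3 replicate 3 (log2 fold change -0.97). Like ABCE1 it was higher in D-2 than in FIT (log2 fold change 0.83, SE 0.12, edgeR adjusted p = 0.004) and at day 14 than at day 1 (log2 fold change 0.60, SE 0.07, edgeR adjusted p = 0.00313), below 2-fold. A readthrough gene of ABCF2 and H2BE1 shares its exons and was listed at up to 3.13 FPKM, with means of 0 in D-2 and 1.17 in IT, so reads may be split between the 2 entries. ABCF1, a partner of the initiation factor eIF2, moved the same way at a smaller size, with values of 25.4 to 29 FPKM in D-2 and 21.3 to 22.3 in D-3 (log2 fold change -0.57, SE 0.10, edgeR adjusted p = 0.00573). ABCF3 was at 6.22 to 10.3 FPKM and did not pass over the 6 groups (edgeR adjusted p = 0.244). Summed over the 4 translation factors, the level was 102.5 to 113.7 FPKM in D-2, 91.5 to 97.4 in DP-3, 76.1 to 89.4 in IT, FIT and DP-3 at day 1 and 65.7 to 74.7 in D-3.

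Genes that act with the family were taken from lists chosen by function, with earlier results of these data known. Of the antigen peptide transporter genes TAP1 and TAP2 and the chloride channel CFTR, which are ABC proteins under other names, TAP1 was downregulated against FIT in D-2 (log2 fold change -1.7, SE 0.27, edgeR adjusted p = 0.00551) and in DP-3 (log2 fold change -1.29, SE 0.27, edgeR adjusted p = 0.0324) and upregulated in D-3 against D-2 (log2 fold change 1.03, SE 0.12, edgeR adjusted p = 0.00236), at 20.6 ± 7.78 FPKM in FIT and 5.68 ± 0.236 in D-2 (SD, n = 3). TAP2 and CFTR were not called. Of 20 genes of drug uptake and other export, 16 were tested in D-2 against FIT and 3 were upregulated with 0 downregulated, against 3.83% of all genes upregulated. These were the nucleoside carrier SLC29A1 (log2 fold change 1.25, SE 0.27, edgeR adjusted p = 0.0132), the proton-coupled folate carrier SLC46A1 (log2 fold change 2.03, SE 0.53, edgeR adjusted p = 0.0257) and the organic cation exporter SLC47A1 (log2 fold change 1.39, SE 0.39, edgeR adjusted p = 0.0324). SLC46A1 and SLC47A1 had means of 0.128 and 0.0894 FPKM in FIT and passed the filter on low values only with D-2. The filter favoured their direction, so their part of the count is a description only. In D-3 against D-2, SLC29A1 and the reduced folate carrier SLC19A1, the entry route of methotrexate, were downregulated (log2 fold change -1.11, SE 0.20, edgeR adjusted p = 0.00698 for SLC19A1) with 0 upregulated of 16 tested, against 3.95% and 14.6% of all genes. In the 4 other comparisons, 14 to 16 of the list were tested and 0 were called.

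Of 16 regulators of the family, 13 or 14 were tested per comparison. RXRA, the common partner of nuclear receptors, was upregulated (log2 fold change 1.04, SE 0.15, edgeR adjusted p = 0.00393) and ARNT downregulated (log2 fold change -1.28, SE 0.31, edgeR adjusted p = 0.0214) in D-2 against FIT. In D-3 against D-2, ARNT (log2 fold change 1.5, SE 0.30, edgeR adjusted p = 0.00932) and NR1H3, the sterol sensor LXR alpha (log2 fold change 1.35, SE 0.23, edgeR adjusted p = 0.0055), were upregulated. In DP-3 against day 1, AHR was upregulated (log2 fold change 1.04, SE 0.10, edgeR adjusted p = 0.00199) and PPARA downregulated (log2 fold change -2.12, SE 0.25, edgeR adjusted p = 0.00307). The shares of all genes called in these 3 comparisons were 14.6%, 18.5% and 7.56%, and 2 regulators of 13, 13 and 14 tested were called. The other 3 comparisons held 0 calls. Of 8 further targets of LXR, 7 were tested in each comparison, and SCD was upregulated against FIT in D-2 (log2 fold change 1.44, SE 0.41, edgeR adjusted p = 0.0345) and DP-3 (log2 fold change 2.08, SE 0.47, edgeR adjusted p = 0.0391), and APOE in D-3 against D-2 (log2 fold change 2.91, SE 0.73, edgeR adjusted p = 0.02), with 0 downregulated. The shares of all genes upregulated were 3.83% in D-2 against FIT, 1.66% in DP-3 against FIT and 14.6% in D-3 against D-2. APOE was at 0.113 ± 0.107 FPKM in D-2 (SD, n = 3) and passed the filter on low values only with D-3. The filter favoured its direction, so this call is a description only. Of 7 genes of pyrophosphate and mineral balance, to which ABCC6 belongs by function, 6 were tested. NT5E (log2 fold change -1.74, SE 0.26, edgeR adjusted p = 0.00934) and the pyrophosphate exporter ANKH (log2 fold change -1.34, SE 0.19, edgeR adjusted p = 0.00891) were downregulated in D-3 against FIT, where 2.17% of all genes were, NT5E also in D-3 against D-2 (log2 fold change -1.3, SE 0.21, edgeR adjusted p = 0.00506, where 3.95% of all genes were), and ENPP1, which makes pyrophosphate, was upregulated in DP-3 against day 1 (log2 fold change 1.61, SE 0.34, edgeR adjusted p = 0.0172), where 1.81% of all genes were.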

How the data were processed

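RNA was measured in 18 libraries made from poly(A) RNA with a strand-marking kit and sequenced in pairs of 150 bases. Per the labels, the submitters' processing notes name cutadapt 1.9, HISAT2 2.0.4, StringTie 1.3.4d, DESeq2 and edgeR. The FPKM values were computed by the authors with StringTie. The deposited estimated counts are whole numbers, and how the authors made them, whether strand was used, and the genome build are not given in the sources used here. Of the 46 members, 46 overlapped their GENCODE release 29 gene and 11 had the same ends. The members, their roles and all lists were chosen with earlier results of these data known. The text names every drug efflux pump and each other member called in a pairwise comparison, and gives the others by ranges, with some named after their values were seen. Results for some genes are not reported here.

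Estimated counts were tested with edgeR 4.0.16 (R 4.3.3), with TMM factors and the quasi-likelihood test, over genes at 0.1 FPKM or more in at least 3 of the libraries fitted, with Benjamini-Hochberg adjustment over all genes tested. Each pairwise fit held the 6 libraries of its groups, and the test over 6 groups held all 18. Fold changes are from these counts, levels are FPKM. Alternatives were median-of-ratios scaling, DESeq2 1.42.0, no filter, a minimum of 1 FPKM, limma 3.58.1 on log2(FPKM + 0.1) or log2(FPKM + 1), one fit of all libraries, a replicate block, and leaving out each library. The scripts were tested on simulated data. With 3 libraries against 3, an exact permutation test of a single value cannot go below 0.1. The limit of detection covers counting error only. Promoters came from RefSeq (GRCh38.p14).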

Additional observations from a re-analysis of the deposited data

How the results depend on the processing

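The number of members called changed with the filter and the unit. In D-2 against FIT it was 3, and 1 with limma on log2(FPKM + 1). In D-3 against FIT it was 5, and 1 with a minimum of 1 FPKM, 1 with limma on log2(FPKM + 1) and 3 to 6 when 1 library was left out, with 3 without D-3 replicate 1 or 3. In DP-3 against FIT it was 2, and 4 with DESeq2, 4 with no filter, 4 with one fit of all 18 libraries, 0 with a minimum of 1 FPKM and 0 with limma on log2(FPKM + 1). Leaving out 1 library there gave 0 to 3, with 0 without DP-3 replicate 1 or 3 or FIT replicate 1 or 2. In DP-3 at day 14 against day 1 it was 5, and 8 with no filter, 3 with a minimum of 1 FPKM, 1 with limma on log2(FPKM + 1) and 4 to 5 with 1 library left out. In D-3 against D-2 it was 10, and 4 with a minimum of 1 FPKM, 1 with limma on log2(FPKM + 1) and 8 to 12 with 1 library left out. A minimum of 1 FPKM leaves 17 to 19 members tested, and a pseudocount of 1 shrinks the change of members below 1 FPKM by construction. Otherwise the cause was not tested. In IT against FIT 0 members were called under every alternative run. Over the 6 groups, 24 members passed, and every alternative stayed within 1.5 times of that.

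The replicate numbers did not pair the libraries, since the correlation of the deviations of equally numbered libraries was between -0.044 and 0.043. With the replicate block, DP-3 against FIT called 0 members and the test over 6 groups 23. Over the called changes and the drug efflux pumps tested, leaving out 1 library kept the call or its absence in 320 fits and lost it in 28, and the other settings kept it in 407 and lost it in 31. Pumps that were not called stayed so in every fit. All 28 and 31 losses therefore fell on called changes, which lost their call more often than these totals show. No called change changed its sign under an alternative, while values that were not called and lay near 0 did for ABCC1, ABCC2, ABCC4 and ABCC5. Depth was smallest in FIT replicate 3, with a total of 23721666 against at least 50327345 in all other libraries.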

Other observations

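Pseudogenes, antisense genes and a readthrough gene of the family were read at low levels. Of 13 such entries, ABCF2-H2BE1 was the highest at up to 3.13 FPKM, ABCF2P2 reached 0.609, ABCA11P 0.214 and ABCA17P 0.185, and the others stayed at or below 0.133. ABCF2P2 had a mean of 0.298 FPKM in DP-3 at day 1 and at most 0.00453 in the means of the other groups. ABCA11P had means of 0.176 in D-3 and 0.127 in DP-3 at day 1, and 0.0485 to 0.0715 in the other groups. DP-3 at day 1 was the group with the most members above the limit of detection, 40 or 41 per library, against 36 to 39 in D-3, 29 to 36 in IT, 27 to 30 in FIT and 28 to 31 in D-2 and DP-3. It also had the most genes of any kind at 0.1 FPKM or more, 24694 to 24791 against 17716 to 22322 elsewhere. Genes above the limit of detection were not counted over the whole series, so whether the count of members is particular to the family was not tested.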
